A study of Homo sapiens with 16 samples.

Results

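The genes described here are 10 members of the YAP/TEAD pathway in LN229, an established line of human glioblastoma (GBM) cells. They were chosen by name, though with earlier results of these data known. They comprise 4 factors, namely the coactivators *YAP1* and *WWTR1* (which encodes TAZ) and the DNA-binding partners *TEAD1* and *TEAD4*, and 6 widely used targets, namely *CCN1*, *CCN2*, *ANKRD1*, *AMOTL2*, *AJUBA* and *LATS2*. The tables list them by NCBI gene number, 10413 for *YAP1*, 25937 for *WWTR1*, 7003 for *TEAD1*, 7004 for *TEAD4*, 3491 for *CCN1*, 1490 for *CCN2*, 27063 for *ANKRD1*, 51421 for *AMOTL2*, 84962 for *AJUBA* and 26524 for *LATS2*. All 10 are among the 13559 genes listed for the first experiment and the 14024 listed for the second. The first experiment compared untreated LN229 cells in regular culture with untreated cells in ischemic culture. The second compared cells treated with DMSO (the solvent), VX745 (an inhibitor of the kinase p38α) or MK25 (an inhibitor of MK2, the kinase that p38α activates) in each culture. There were 2 libraries in each of the 8 groups and 16 libraries in all. Regular culture was complete medium with 10% fetal bovine serum, and ischemic culture lowered glucose to 2 mM, glutamine to 0.1 mM, serum to 1% and oxygen to about 1%. The time in ischemic culture and the doses of the inhibitors are not given for these libraries in the sources used here. Elsewhere in the study VX745 was used at 2 µM and MK25 at 10 µM, so that the doses of the inhibitors may differ. No label names a genetic change, and all groups come from the same line. The labels do not say whether libraries of a group come from separate cultures, so p-values measure a spread between these libraries that may be technical. For each gene that spread was estimated in part from other genes of like level.

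YAP and TAZ are transcriptional coactivators without a DNA-binding domain of their own. When the Hippo kinase cascade (the MST kinases, then the LATS kinases) is active, YAP and TAZ are phosphorylated and kept out of the nucleus, and when it is inactive they enter the nucleus and bind the TEAD factors on DNA. Target genes include the secreted matrix proteins CCN1 and CCN2, the nuclear ankyrin-repeat protein ANKRD1, and inhibitors of the pathway itself, such as AMOTL2 and LATS2. Since YAP and TAZ are controlled largely through their phosphorylation and location, the mRNA of *YAP1* and *WWTR1* is not a measure of their activity, and no protein was measured in these libraries.

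TEAD factors recognise DNA with the core GGAATG, which reads CATTCC on the opposite strand. The RefSeq promoter table (GRCh38.p14) holds 10 start sites for 7 of the 10 members, and *CCN1*, *TEAD1* and *TEAD4* have no entry in it. In the 250 bases before the start, the core was found in 5 of these 10 windows, which belong to 5 genes, whereas 11.9% of the 35116 windows of the whole table hold it. The 5 windows are shown because they carry the letters that define the pathway's DNA-binding step, each 5′ to 3′ on the strand of the gene, with the core in capitals.
CCN2 (chr6:131951373-131951622, minus strand): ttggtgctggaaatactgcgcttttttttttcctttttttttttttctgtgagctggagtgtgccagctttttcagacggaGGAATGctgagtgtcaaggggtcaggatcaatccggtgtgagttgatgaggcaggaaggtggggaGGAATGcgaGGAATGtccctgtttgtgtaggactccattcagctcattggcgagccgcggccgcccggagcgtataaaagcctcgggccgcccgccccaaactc
ANKRD1 (chr10:90921088-90921337, minus strand): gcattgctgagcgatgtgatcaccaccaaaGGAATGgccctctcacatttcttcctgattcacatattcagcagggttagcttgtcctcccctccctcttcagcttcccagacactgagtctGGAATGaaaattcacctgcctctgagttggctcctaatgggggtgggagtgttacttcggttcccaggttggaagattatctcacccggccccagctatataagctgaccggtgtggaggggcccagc
AMOTL2 second start (chr3:134374448-134374697, minus strand): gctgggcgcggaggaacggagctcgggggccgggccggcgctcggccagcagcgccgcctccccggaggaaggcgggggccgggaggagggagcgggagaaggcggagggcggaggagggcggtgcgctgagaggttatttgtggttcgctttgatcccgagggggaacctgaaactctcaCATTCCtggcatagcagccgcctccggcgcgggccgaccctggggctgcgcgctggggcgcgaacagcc
AJUBA second start (chr14:22976843-22977092, minus strand): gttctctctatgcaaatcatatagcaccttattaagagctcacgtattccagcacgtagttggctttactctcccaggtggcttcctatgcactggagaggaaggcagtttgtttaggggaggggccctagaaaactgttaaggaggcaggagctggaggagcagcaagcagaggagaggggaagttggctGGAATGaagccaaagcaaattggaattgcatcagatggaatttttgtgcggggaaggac
YAP1 (chr11:102110197-102110446, plus strand): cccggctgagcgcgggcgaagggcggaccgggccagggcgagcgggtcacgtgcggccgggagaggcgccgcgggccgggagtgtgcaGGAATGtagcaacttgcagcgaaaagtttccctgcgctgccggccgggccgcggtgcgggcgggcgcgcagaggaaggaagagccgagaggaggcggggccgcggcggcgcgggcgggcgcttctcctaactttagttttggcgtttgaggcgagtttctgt

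The *CCN2* promoter held 3 copies of the core, which begin 169, 104 and 95 bases before the start, and 0.0826% of all windows hold 3 or more. *ANKRD1* had 2 copies, at 220 and 128 bases, as do 0.940% of all windows at least. The copy lies 69 bases before the second start of *AMOTL2*, 59 bases before the second start of *AJUBA* and 162 bases before that of *YAP1*. No copy was found in the windows of *WWTR1* and *LATS2* or at the first starts of *AMOTL2* and *AJUBA*, which says only that these letters are not in these windows. The AP-1 motif was searched in the loose form TGANTCA, with any base in the middle. It was found in the window of *ANKRD1* alone, as TGATTCA 195 bases before the start, and is present in 6.57% of all windows. Of the core of hypoxia response elements only the form ACGTG was searched, which overlaps itself on the opposite strand where the letters read CACGTG. This form was found in the windows of *YAP1* and *LATS2* and at both starts of *AJUBA*, and in 18.5% of all windows. Other forms of that core may lie in these or other windows. The CArG box, bound by SRF, was in none of the 10 windows and in 1.16% of all. A match describes the letters only, and no binding was measured.

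The deposited values are log2 normalized CPM (read counts relative to the depth of the library, scaled between libraries). Libraries held 20122017 to 37562668 reads on the listed genes, and the 6 ischemic libraries of the second experiment (27239609 to 37562668 reads) were on the whole deeper than the 6 regular ones (20122017 to 30228774 reads). The chi-square per gene between replicates was 3.28 to 9.32, above the sampling noise of the reads. The hypoxia gene *CA9*, which encodes a carbonic anhydrase, separated the cultures as labelled and was between 6.86 and 7.32 in the ischemic and between −2.01 and 2.30 in the regular libraries of the second experiment. Its highest regular values were those with MK25, with a mean of 2.22 against −0.75 with DMSO (adjusted p = 4.90e-05, limma), though *CA9* had as few as 4 reads in a library. *NDRG1* and *VEGFA*, also used to check the culture, had higher means with MK25 than with DMSO in regular culture too. These were 6.33 against 5.01 for *NDRG1* and 6.37 against 5.44 for *VEGFA*. The part of these differences in the members' values was not tested. Of the line's markers, *VIM*, *NES* and *CD44* had means of 8.45 or more in every group, but with ischemia and DMSO *VIM* rose by 1.27, *CD44* rose by 0.32, *NES* fell by 1.06 and *SOX2* fell from 5.93 to 3.70, and the astrocyte marker *GFAP* was at or below 1.06. Markers of leukocytes, endothelium and epithelium (*PTPRC*, *PECAM1*, *EPCAM*) are not listed in either table. The libraries do not mark strand, so that reads from overlapping genes may be shared. In GENCODE 44, exons of other genes overlap 10.1% of the exonic bases of *YAP1*, 9.05% of *WWTR1* (all *WWTR1-AS1*, on the opposite strand), 11.9% of *CCN2*, 2.89% of *AMOTL2* and 0.850% of *AJUBA*. They overlap none of the other 5 members.

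Groups were compared with limma, and a gene was called when its Benjamini-Hochberg adjusted p (over every gene tested in that comparison) was under 0.05. Values of the 2 experiments are not compared with each other, since they were normalized apart. In RNA from whole cultures, fewer cells with a transcript and less transcript per cell cannot be told apart.

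*WWTR1* was the more abundant of the coactivator transcripts. Per kb of transcript, *WWTR1* (chromosome 3, 149517235 to 149724788 of GRCh38) had a mean of 51.1 CPM in regular DMSO cells and *YAP1* (chromosome 11, 102110447 to 102233424) had 8.06. *WWTR1* made up 83.7% to 88.4% of the sum of both per kb in each of the 12 libraries of the second experiment, and 84.8% to 85.2% in the first. The log2 normalized CPM of *YAP1* was 5.50 and 5.39 in regular DMSO cells. VX745 gave 5.43 and 5.46 in that culture, and MK25 gave 5.45 and 5.44. In ischemic cells it was 5.53 and 5.51 with DMSO, 5.59 and 5.58 with VX745, and 5.55 and 5.54 with MK25. All 6 ischemic libraries lay above all 6 regular ones, but the 12 libraries together reached only from 5.39 to 5.59. The difference between the cultures with DMSO was 0.07 (95% interval −0.06 to 0.20) and did not pass the test. In untreated cells *YAP1* was 5.49 and 5.66 in regular and 5.79 and 5.79 in ischemic culture, and it rose by 0.21 (standard error 0.08, adjusted p = 0.0344, limma). That call was lost without regular untreated replicate 1 (log2 fold change 0.13). It was also lost with libraries centred on their median, under quantile normalization and without a variance trend.

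The level of *WWTR1* was 7.93 and 8.08 in regular DMSO cells and 8.28 and 8.33 in ischemic DMSO cells, which do not overlap. The rise was 0.30 (log2; standard error 0.07, adjusted p = 0.000666, limma), a change that shrank to 0.08 (adjusted p = 0.329) under quantile normalization. In untreated cells it was 7.90 and 8.09 in regular and 8.18 and 8.17 in ischemic culture. The rise of 0.18 (adjusted p = 0.0445, limma) did not hold without regular untreated replicate 1 (0.09), nor without either ischemic library. Median centring, quantile normalization and a fit without a variance trend each ended that call too. With MK25 in ischemic culture *WWTR1* was 8.06 and 8.13, below both DMSO libraries, and it fell by 0.21 (standard error 0.07, adjusted p = 0.0172, limma). That call was lost without ischemic DMSO replicate 2 (adjusted p = 0.111) and without ischemic MK25 replicate 1 (adjusted p = 0.117), and under quantile normalization the difference of *WWTR1* was −0.07 (adjusted p = 0.50). VX745 gave 8.23 and 8.20 in ischemic culture, a difference of −0.09 (95% interval −0.23 to 0.05).

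*TEAD1* and *TEAD4*, 2 of the 4 paralogous factors that carry YAP and TAZ on DNA, moved in opposite directions between the cultures. The log2 normalized CPM of *TEAD1* (chromosome 11, 12674421 to 12944737) was 7.64 and 7.63 in regular DMSO cells and 7.43 and 7.32 in ischemic DMSO cells. *TEAD4* (chromosome 12, 2959397 to 3040676) was 4.98 and 4.86 in regular DMSO cells and 5.39 and 5.50 in ischemic DMSO cells. Neither pair of groups overlaps, with *TEAD1* lower and *TEAD4* higher in ischemic cells. *TEAD1* fell by 0.26 (standard error 0.06, adjusted p = 0.00110) and *TEAD4* rose by 0.52 (standard error 0.08, adjusted p = 9.92e-06, limma). In untreated cells *TEAD1* went from 7.52 and 7.67 to 7.18 and 7.18, and *TEAD4* from 4.85 and 4.76 to 5.12 and 5.11. *TEAD1* fell by 0.41 (standard error 0.07, adjusted p = 0.000198) and *TEAD4* rose by 0.31 (standard error 0.08, adjusted p = 0.00593, limma). The *TEAD4* call in untreated cells was lost without regular untreated replicate 2 (adjusted p = 0.0615). Per kb, and as a share of all 4 TEAD transcripts, *TEAD1* went from a mean of 41.7% in regular to 34.6% in ischemic DMSO cells, while *TEAD4* went from 35.0% to 49.9%. The other 2 paralogs made up 13.1% (*TEAD2*) and 10.2% (*TEAD3*) in regular DMSO cells and 9.16% and 6.42% in ischemic DMSO cells. These shares depend on the transcript length used for each gene. In CPM without division by length, *TEAD1* was above *TEAD4* in regular (198 against 30.2) and in ischemic DMSO cells (166 against 43.5).

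Both inhibitors lowered *TEAD4* in ischemic culture. It was 5.13 and 5.08 with VX745 and 4.69 and 4.56 with MK25, so that both VX745 libraries lay between the DMSO and the MK25 libraries. The decrease was 0.34 with VX745 (standard error 0.08, adjusted p = 0.00362, limma), and *TEAD4* fell by 0.82 with MK25 (standard error 0.08, adjusted p = 3.82e-07, limma). The direct difference, MK25 minus VX745, was −0.49 (standard error 0.08, adjusted p = 0.000212, limma). In regular culture VX745 gave *TEAD4* values of 4.81 and 4.87, while MK25 gave 4.71 and 4.59. The MK25 libraries were the lowest there, a decrease of 0.27 (adjusted p = 0.0302, limma) that was lost without regular MK25 replicate 2 (adjusted p = 0.166) or regular DMSO replicate 1 (adjusted p = 0.137). The effect of MK25 on *TEAD4* was larger in ischemic than in regular culture, with a difference between the effects of −0.55 (standard error 0.11, adjusted p = 0.00147, limma). *TEAD1* was 7.48 and 7.44 with VX745 in ischemic culture, a difference of 0.09 from DMSO (95% interval −0.04 to 0.21) that was called under quantile normalization (0.18, adjusted p = 0.0413, limma). With MK25 it was 7.12 and 7.24, lower than both DMSO libraries, and it fell by 0.19 (adjusted p = 0.0178, limma). That fall was not called without ischemic MK25 replicate 1 (adjusted p = 0.184) or ischemic DMSO replicate 1 (adjusted p = 0.194), and under quantile normalization the difference was −0.08 (adjusted p = 0.338). Set directly against VX745, *TEAD1* was lower with MK25 (difference −0.28, adjusted p = 0.00347, limma), but not without ischemic MK25 replicate 1 (adjusted p = 0.0627).

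**Figure D1:**
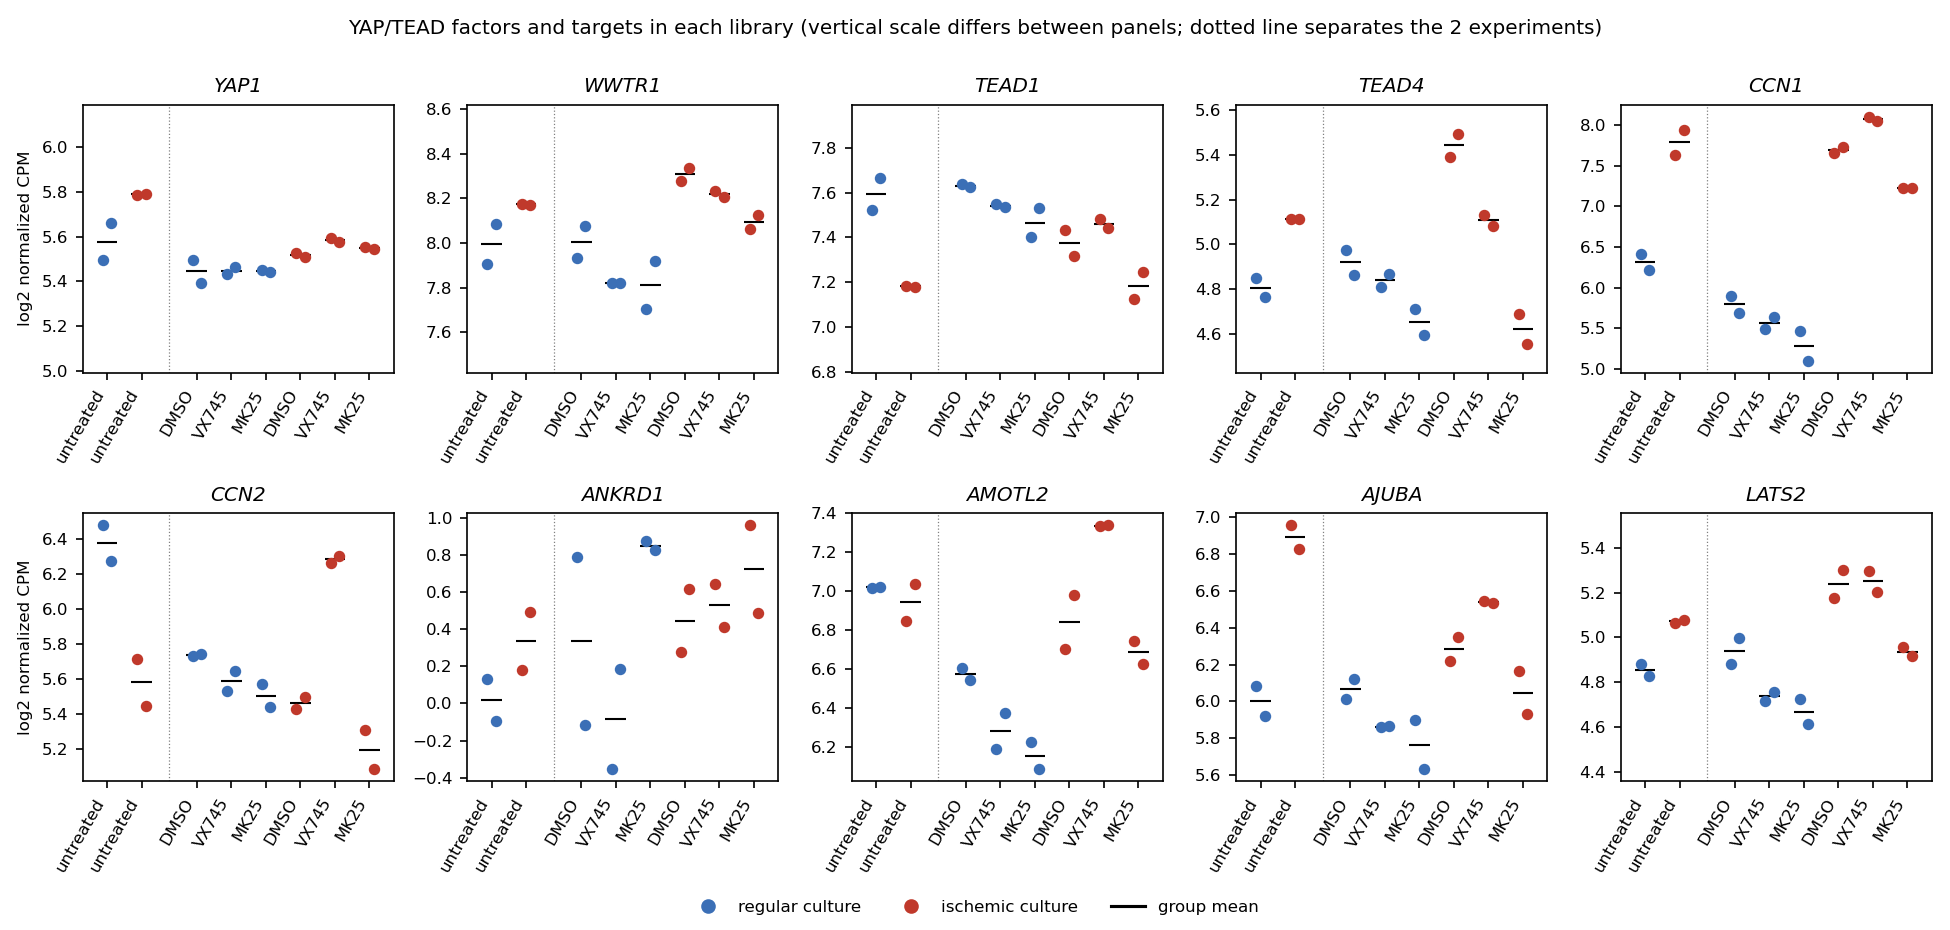
Log2 normalized CPM of each of the 10 genes (vertical axis, with its own range in each panel) in each library, in regular (blue) and ischemic (red) culture, with the 2 libraries of a group as points and their mean as a bar. The dotted line separates the experiments, whose levels are not compared. *CCN1* was higher in every ischemic library than in any regular library of its experiment, and *YAP1* lay between 5.39 and 5.59 in the second experiment.

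*CCN1* and *CCN2*, which encode the secreted matricellular proteins CYR61 and CTGF, changed in opposite directions in ischemic culture. The log2 normalized CPM of *CCN1* (chromosome 1, 85580761 to 85583950) was 5.89 and 5.69 in regular and 7.66 and 7.72 in ischemic DMSO cells. That of *CCN2* (chromosome 6, 131948176 to 131951372) was 5.73 and 5.75 in regular and 5.43 and 5.50 in ischemic DMSO cells. Neither gene's groups overlap, and the change of *CCN1* was by far the wider. *CCN1* rose 3.73-fold (log2 fold change 1.90, standard error 0.09, adjusted p = 6.96e-12, limma), and *CCN2* fell by 0.28 on the log2 scale (standard error 0.08, adjusted p = 0.00378, limma). In untreated cells *CCN1* went from 6.41 and 6.22 to 7.63 and 7.94, and *CCN2* from 6.48 and 6.27 to 5.72 and 5.45. *CCN1* rose 2.78-fold there (log2 fold change 1.47, standard error 0.10, adjusted p = 6.12e-08, limma). *CCN2* fell by 0.80 (standard error 0.10, adjusted p = 1.45e-05, limma). These 4 calls remained with each library left out and under the other scalings, filters and variance models tried.

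The same data can be read as a ratio within each library, in which a scaling of the library cancels. Per kb, *CCN1* was 0.812 to 1.15 times as abundant as *CCN2* in the 8 regular libraries. In the 8 ischemic libraries it was 3.45 to 5.81 times as abundant, with no overlap between the cultures. In ischemic culture the ratio was 4.83 and 4.81 with DMSO, 3.66 and 3.45 with VX745, and 3.87 and 4.52 with MK25.

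VX745 raised *CCN2* in ischemic culture and left it lower than *CCN1*. *CCN2* was 6.27 and 6.31 with VX745, above all 10 other libraries of the second experiment, which lay between 5.08 and 5.75. It rose 1.77-fold over ischemic DMSO cells (log2 fold change 0.82, standard error 0.08, adjusted p = 1.45e-06, limma). *CCN1* was 8.10 and 8.05 with VX745, again the highest libraries, and it rose by 0.39 (standard error 0.09, adjusted p = 0.00504, limma). Without a trend of the variance on the level, the *CCN1* call was lost by a small margin (adjusted p = 0.0513). In regular culture with VX745, *CCN2* was 5.53 and 5.65 and *CCN1* was 5.49 and 5.64, differences from DMSO of −0.15 (95% interval −0.31 to 0.01) and −0.22 (−0.42 to −0.03) that did not pass the adjusted test. The effect of VX745 differed between the cultures by 0.98 for *CCN2* (standard error 0.11, adjusted p = 6.94e-05) and by 0.61 for *CCN1* (standard error 0.13, adjusted p = 0.00766, limma), the latter with an adjusted p of 0.0785 when no trend of the variance was fitted.

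MK25 lowered both genes in ischemic culture. *CCN1* was 7.22 and 7.22 and *CCN2* was 5.31 and 5.08, below both DMSO libraries in each case. *CCN1* fell by 0.47 (standard error 0.09, adjusted p = 0.000655) and *CCN2* fell by 0.27 (standard error 0.08, adjusted p = 0.00999, limma). The *CCN2* call was lost without ischemic MK25 replicate 2 (adjusted p = 0.164) and without ischemic DMSO replicate 2 (adjusted p = 0.0762). Set directly against VX745 in ischemic culture, MK25 gave *CCN2* values lower by 1.09 on the log2 scale, which corresponds to 2.13-fold more *CCN2* with VX745 (adjusted p = 2.00e-08, limma). The corresponding difference of *CCN1* was −0.86 (standard error 0.09, adjusted p = 3.63e-06, limma). In regular culture with MK25, *CCN1* was 5.47 and 5.10 and fell by 0.51 (standard error 0.09, adjusted p = 0.00152, limma). *CCN2* was 5.57 and 5.44 there, a difference of −0.23 (95% interval −0.39 to −0.07) with an adjusted p of 0.0544 from limma.

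**Figure D2:**
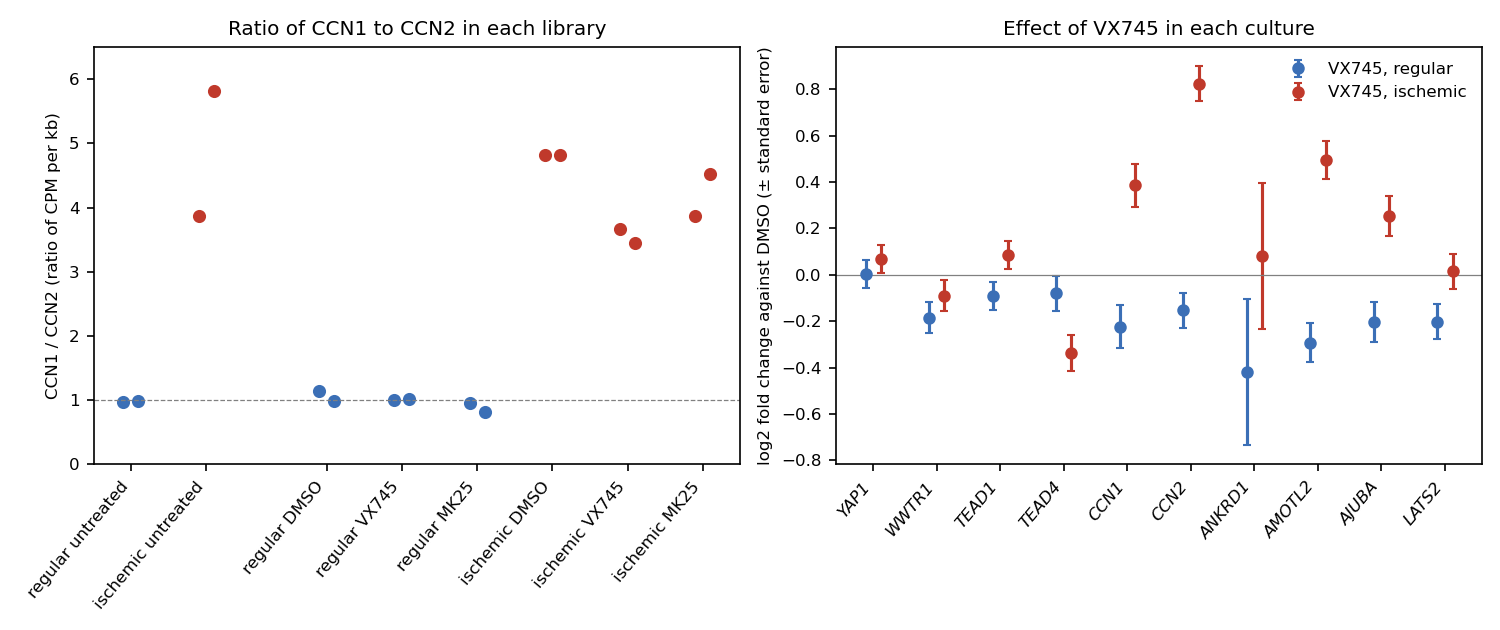
Left, ratio of *CCN1* to *CCN2* per kb of transcript in each of the 16 libraries, where blue points (regular) lie between 0.812 and 1.15 and red points (ischemic) between 3.45 and 5.81, and the dashed line marks equal levels. Right, log2 fold change against DMSO with VX745 for each gene in regular (blue) and ischemic (red) culture, with bars for ± 1 standard error, in which *CCN2*, *AMOTL2*, *CCN1* and *AJUBA* have the effects that differed between the cultures in the test.

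*ANKRD1*, a target best known from heart and skeletal muscle, was barely detected in LN229. This gene (chromosome 10, 90912096 to 90921087) had 18 to 69 reads a library in the second experiment and 24 to 29 in the first, or 0.711 to 1.87 CPM. Its log2 value was 0.79 and −0.12 in regular DMSO cells. VX745 gave −0.35 and 0.18 in that culture, and MK25 gave 0.87 and 0.83. In ischemic culture it was 0.28 and 0.62 with DMSO, 0.65 and 0.41 with VX745, and 0.96 and 0.49 with MK25. In untreated cells it was 0.13 and −0.09 in regular and 0.18 and 0.49 in ischemic culture. The libraries of regular DMSO cells lay apart, with 1 above and 1 below both ischemic DMSO libraries. No comparison called *ANKRD1*, and the widest difference was that of MK25 against VX745 in regular culture (0.94, 95% interval 0.27 to 1.60, adjusted p = 0.106, limma). The interval for ischemia with DMSO reached from −0.55 to 0.78, which holds the change of −0.28 seen in *CCN2*, so that a change of that size was not detectable at this depth. An offset of 1.49 to 2.62 reads included in the deposited values of that experiment makes its differences somewhat smaller than those of the reads.

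The remaining members, *AMOTL2* (an angiomotin that holds YAP and TAZ outside the nucleus), *AJUBA* (a LIM protein that restrains the LATS kinases) and *LATS2* (a kinase that phosphorylates YAP and TAZ), are regulators of the pathway as well as its targets. The log2 normalized CPM of *AMOTL2* (chromosome 3, 134355345 to 134375417) was 6.60 and 6.55 in regular DMSO cells and 6.70 and 6.98 in ischemic DMSO cells. It rose by 0.27 (standard error 0.08, adjusted p = 0.00866, limma), but not without ischemic DMSO replicate 2 (0.13, adjusted p = 0.216) or regular DMSO replicate 2 (adjusted p = 0.0567). In untreated cells it was 7.02 and 7.02 in regular and 6.85 and 7.04 in ischemic culture, groups that overlap, with a difference of −0.08 (95% interval −0.24 to 0.09). VX745 in ischemic culture gave 7.34 and 7.34, above every other library of that experiment, and *AMOTL2* rose 1.41-fold over DMSO (log2 fold change 0.50, standard error 0.08, adjusted p = 0.000346, limma). In regular culture the difference with VX745 was −0.29 (values of 6.19 and 6.37, adjusted p = 0.129), and the effects in the cultures differed by 0.79 (standard error 0.12, adjusted p = 0.000696, limma). With MK25 *AMOTL2* was 6.75 and 6.63 in ischemic culture, −0.15 from DMSO (95% interval −0.33 to 0.02), a decrease that was called only without ischemic DMSO replicate 1 (−0.29, adjusted p = 0.0165). In regular culture it was 6.22 and 6.09 with MK25 and fell by 0.42 (standard error 0.08, adjusted p = 0.00279, limma), a call that was lost without a variance trend (adjusted p = 0.0539).

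*AJUBA* (chromosome 14, 22971177 to 22982551) rose in ischemic culture in both experiments, but by unlike amounts. In untreated cells it was 6.09 and 5.92 in regular and 6.96 and 6.83 in ischemic culture, a 1.85-fold rise (log2 fold change 0.89, standard error 0.08, adjusted p = 7.96e-07, limma). With DMSO it was 6.01 and 6.12 in regular and 6.22 and 6.35 in ischemic culture, a rise of 0.22 (standard error 0.09, adjusted p = 0.0330, limma) that was lost without ischemic DMSO replicate 2 (adjusted p = 0.225) or regular DMSO replicate 1 (adjusted p = 0.191). Whether the response differs between the experiments was not tested. In ischemic culture it was 6.54 and 6.53 with VX745 and 6.16 and 5.93 with MK25, so that the groups stand in the order MK25, DMSO, VX745 without overlap. The rise of 0.25 with VX745 (adjusted p = 0.0343, limma) was lost without either VX745 library (adjusted p = 0.136 and 0.121) or ischemic DMSO replicate 1 (adjusted p = 0.238). The decrease with MK25, by 0.24 (adjusted p = 0.0353, limma), was lost without ischemic MK25 replicate 2 (adjusted p = 0.363) or ischemic DMSO replicate 2 (adjusted p = 0.234). Set directly against each other, the inhibitors differed by −0.49 (MK25 minus VX745, standard error 0.09, adjusted p = 0.000548, limma), also with each library left out. In regular culture *AJUBA* was 5.86 and 5.87 with VX745 and 5.90 and 5.63 with MK25, all 4 below both DMSO libraries, and only the decrease with MK25 passed the test (0.30, adjusted p = 0.0290, limma). It was not called without regular MK25 replicate 2 (adjusted p = 0.254) or regular DMSO replicate 2 (adjusted p = 0.200). The effect of VX745 differed between the cultures by 0.46 (standard error 0.12, adjusted p = 0.0217, limma), with an adjusted p of up to 0.0962 when 1 library was left out, and 6 of the 8 libraries ended the call when left out (both of ischemic VX745, both of regular VX745, ischemic DMSO replicate 1 and regular DMSO replicate 2).

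*LATS2* (chromosome 13, 20973036 to 21061586) was 4.88 and 5.00 in regular DMSO cells and 5.17 and 5.30 in ischemic DMSO cells, and it rose by 0.30 (standard error 0.08, adjusted p = 0.00196, limma). In untreated cells it went from 4.88 and 4.83 to 5.06 and 5.08, a rise of 0.22 (adjusted p = 0.0337, limma) that was not called when any 1 of the 4 libraries was left out (adjusted p of up to 0.157, without regular untreated replicate 2). The inhibitors differed in ischemic culture, where *LATS2* was 5.30 and 5.20 with VX745, within the range of DMSO, and 4.96 and 4.92 with MK25, below it. The difference from DMSO was 0.01 with VX745 (95% interval −0.14 to 0.17), and *LATS2* fell by 0.30 with MK25 (standard error 0.08, adjusted p = 0.00418, limma). The call with MK25 was lost without ischemic DMSO replicate 2 (adjusted p = 0.0622). The direct difference was −0.32 (adjusted p = 0.00680, limma), lost without ischemic MK25 replicate 2 (adjusted p = 0.0544) or ischemic VX745 replicate 1 (adjusted p = 0.0981). In regular culture *LATS2* was 4.72 and 4.76 with VX745, a difference of −0.20 (adjusted p = 0.225), and 4.73 and 4.61 with MK25, a decrease of 0.27 (adjusted p = 0.0262, limma). That decrease did not pass without regular MK25 replicate 2 (adjusted p = 0.150) or regular DMSO replicate 2 (adjusted p = 0.188).

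The order of levels per kb changed between the cultures at the top. In regular DMSO cells it was *WWTR1*, *CCN1* (24.3 CPM per kb), *CCN2* (22.8), *TEAD1*, *AMOTL2*, *TEAD4*, *AJUBA*, *YAP1*, *LATS2* (5.52) and *ANKRD1* (0.699), and of the neighbours only *CCN1* and *CCN2* overlapped. In ischemic DMSO cells *CCN1* stood first with 90.8 CPM per kb, before *WWTR1* (62.9), *TEAD4* (25.4) and *AMOTL2* (23.7). *TEAD4* overlapped *AMOTL2*, *CCN2* overlapped *AJUBA*, and *AJUBA* overlapped *TEAD1*, so that the order within these pairs is not resolved. The order also depends on the length of the 1 reference transcript used per gene, and which transcripts the cells use was not tested. Without division by length, *WWTR1* (317 CPM) stood above *CCN1* (207) in ischemic DMSO cells, and *TEAD1* (166) above *TEAD4* (43.5).

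Counted over the 10 members, 6 rose and 2 fell in ischemic culture without treatment, where 35.2% of all genes rose and 35.2% fell. With DMSO 6 rose and 2 fell again, against 34.4% and 35.2% of all genes. The members' median log2 fold change was 0.21 in untreated cells and 0.24 with DMSO, and that of all genes was −0.01 in each. *WWTR1*, *TEAD4*, *CCN1*, *AJUBA* and *LATS2* rose and *TEAD1* and *CCN2* fell in both experiments. The untreated rises of *WWTR1* and *LATS2* were not called with median centring, under quantile normalization or without a variance trend. Quantile normalization also ended the calls of *WWTR1* and *AJUBA* with DMSO, and that of *AJUBA* was lost without a variance trend. Without regular untreated replicate 1 the members that rose in untreated cells numbered 3. Only *CCN1* changed at least 2-fold in either experiment.

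In ischemic culture VX745 raised 4 members (*CCN1*, *CCN2*, *AMOTL2*, *AJUBA*) and lowered *TEAD4*, where 14.0% of all genes rose and 14.9% fell. MK25 raised 0 and lowered 7 of the 10 members (19.8% and 22.0% of all genes), that is, all but *YAP1*, *ANKRD1* and *AMOTL2*. Both limma on the deposited values and voom on the recovered reads gave 0 members raised by MK25, and 0 had a positive change at an unadjusted p under 0.05. Without ischemic DMSO replicate 2 the members lowered by MK25 numbered 3. These comparisons share the ischemic DMSO libraries, so their values are not independent. In the direct comparison 7 members were lower with MK25 than with VX745, against 10.2% of all genes, and their median difference over all 10 was −0.40.

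In regular culture VX745 changed 0 of 10 members by limma and 0 by voom, with 5 at an unadjusted p under 0.05, all lower, and 0.335% of all genes were called. All members but *YAP1* had a negative difference there, from −0.42 to −0.08, and that of *YAP1* was 0.00. MK25 lowered 5 members (*TEAD4*, *CCN1*, *AMOTL2*, *AJUBA*, *LATS2*), against 5.21% of all genes. Without regular DMSO replicate 2 the members lowered numbered 3, with only the regular MK25 and DMSO libraries in the fit 2, and without a variance trend 1 (*CCN1*). MK25 and VX745 differed in 0 of 10 members in regular culture by limma and voom, with 3 at an unadjusted p under 0.05 and 5.39% of all genes called. Without regular MK25 replicate 1, 1 member was called lower.

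The effect of VX745 was more positive in ischemic than in regular culture for 4 members (*CCN1*, *CCN2*, *AMOTL2*, *AJUBA*), against 5.78% of all genes called in that direction and 11.8% in either. For MK25 the interaction with culture was negative for 1 member, *TEAD4*, against 13.9% of all genes (24.4% in either direction), a count not above that share. The intervals for *CCN1* (−0.24 to 0.31) and *CCN2* (−0.26 to 0.19) hold no difference of the size found for VX745.

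**Figure D3:**
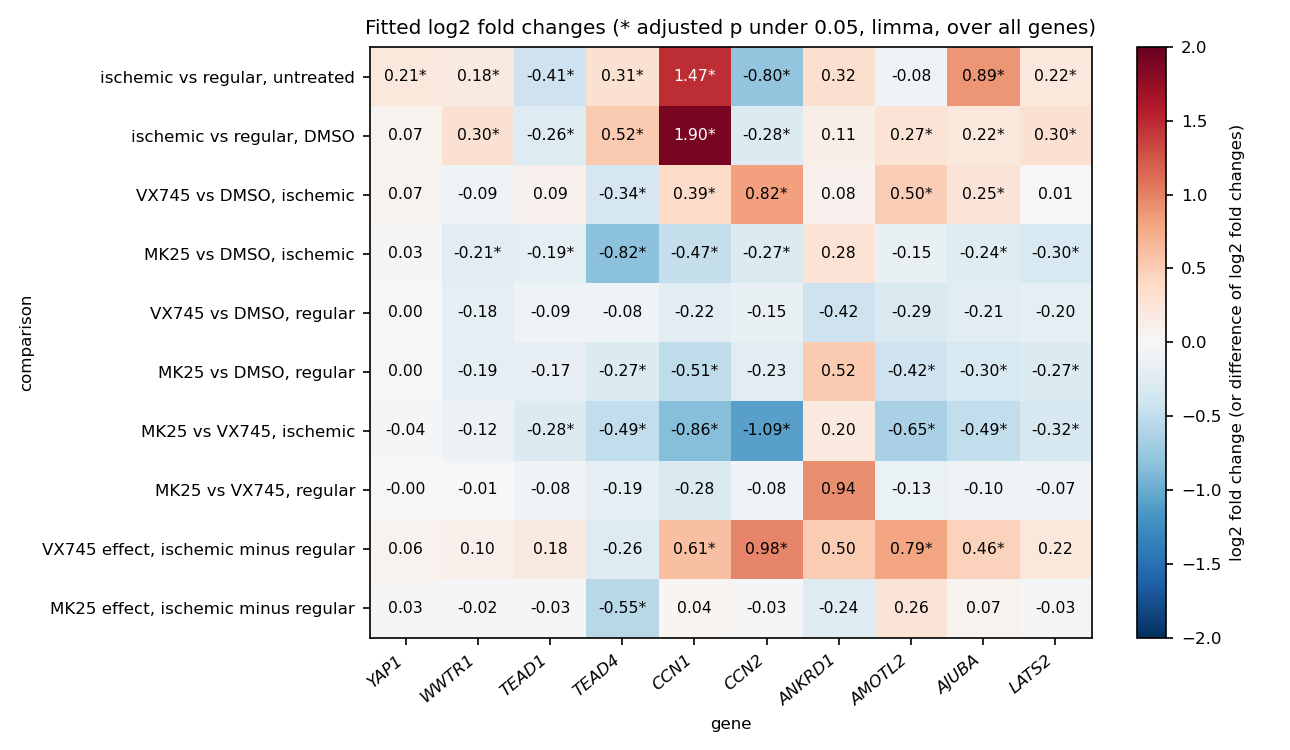
Fitted log2 fold change of each gene (columns) in each of the 10 comparisons (rows), where the last 2 rows are differences of fold changes between the cultures and an asterisk marks an adjusted p under 0.05. The row of VX745 in ischemic culture has 4 called increases and 1 called decrease, and the row of MK25 in ischemic culture has 7 called decreases.

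The other genes of the pathway were taken from lists chosen by function. Of 19 Hippo kinases and adaptors, all listed, 7 rose and 7 fell in ischemic DMSO cells, with a median of 0.03, where 34.4% of all genes rose and 35.2% fell. In untreated cells 10 rose and 6 fell with ischemia, with a median of 0.28 (35.2% of all genes in each direction). In ischemic DMSO cells the kinase *TAOK2* fell by 1.15, the LATS cofactor *MOB1A* by 1.07 and the adaptor *WWC1* by 0.75. The paralog of *WWC1*, *WWC2*, rose by 0.70 there. With VX745 in ischemic culture 5 rose and 2 fell (14.0% and 14.9% of all genes), among them *NF2* (which encodes merlin, an upstream activator of the cascade) by 0.54 and *WWC2* by −0.47. With MK25 2 rose and 7 fell (19.8% and 22.0% of all genes), with *NF2* at −0.42 and *WTIP*, a paralog of *AJUBA*, at −0.47. In regular culture VX745 changed 0 of 19 (2 at an unadjusted p under 0.05), and MK25 lowered 2, *MOB1A* by 0.28 and *LATS1* by 0.27. Of all genes, VX745 changed 0.335% and MK25 lowered 5.21% there.

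Of the 6 other TEAD and VGLL genes, 4 are listed, and VGLL proteins compete with YAP and TAZ for TEAD factors or join them on DNA. In ischemic DMSO cells 3 of these 4 fell, against 35.2% of all genes, and in untreated ischemic cells 4 of 4 fell, against the same share. With DMSO *VGLL3* fell by 1.64, *TEAD3* by 0.64 and *TEAD2* by 0.50. With VX745 in ischemic culture *VGLL3* rose by 0.70, where 14.0% of all genes rose. With MK25 0 of 4 were called by limma, with 2 at an unadjusted p under 0.05, where 41.7% of all genes were called. In regular culture MK25 lowered *VGLL3* by 0.56 and *VGLL4* by 0.30, where 5.21% of all genes were lowered.

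Of 17 other genes reported as YAP/TAZ targets, 11 rose and 3 fell in ischemic DMSO cells, with a median of 0.49, where 34.4% of all genes rose and 35.2% fell. In untreated cells 11 rose and 2 fell, with a median of 0.35 (35.2% of all genes in each direction). *IGFBP3* encodes a binding protein of insulin-like growth factors and is also induced by hypoxia. With ischemia and DMSO it rose by 4.78, tissue factor (*F3*) by 1.98 and the stress gene *GADD45A* by 1.67, whereas *FJX1* fell by 1.59. In ischemic culture 4 rose and 1 fell with VX745 (14.0% and 14.9% of all genes). *FJX1* rose by 0.89 and *IGFBP3* changed by −1.65. With MK25 1 rose and 10 fell (19.8% and 22.0% of all genes), with a median of −0.32, led by *TGFB2* (−0.76) and *MYOF* (−0.71). In regular culture MK25 lowered 3 of the 17 (5.21% of all genes), among them *FJX1* (−0.40) and *GADD45A* (−0.34). VX745 changed 0 there by limma (0.335% of all genes), with 4 at an unadjusted p under 0.05. The third CCN gene listed, *CCN3*, whose product often opposes that of *CCN2*, fell by 0.77 in ischemic DMSO cells. It rose by 0.90 with VX745 and by 1.68 with MK25 in ischemic culture, and by 0.87 with MK25 in regular culture, so that it went up with MK25 where *CCN1* went down.

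**Figure D4:**
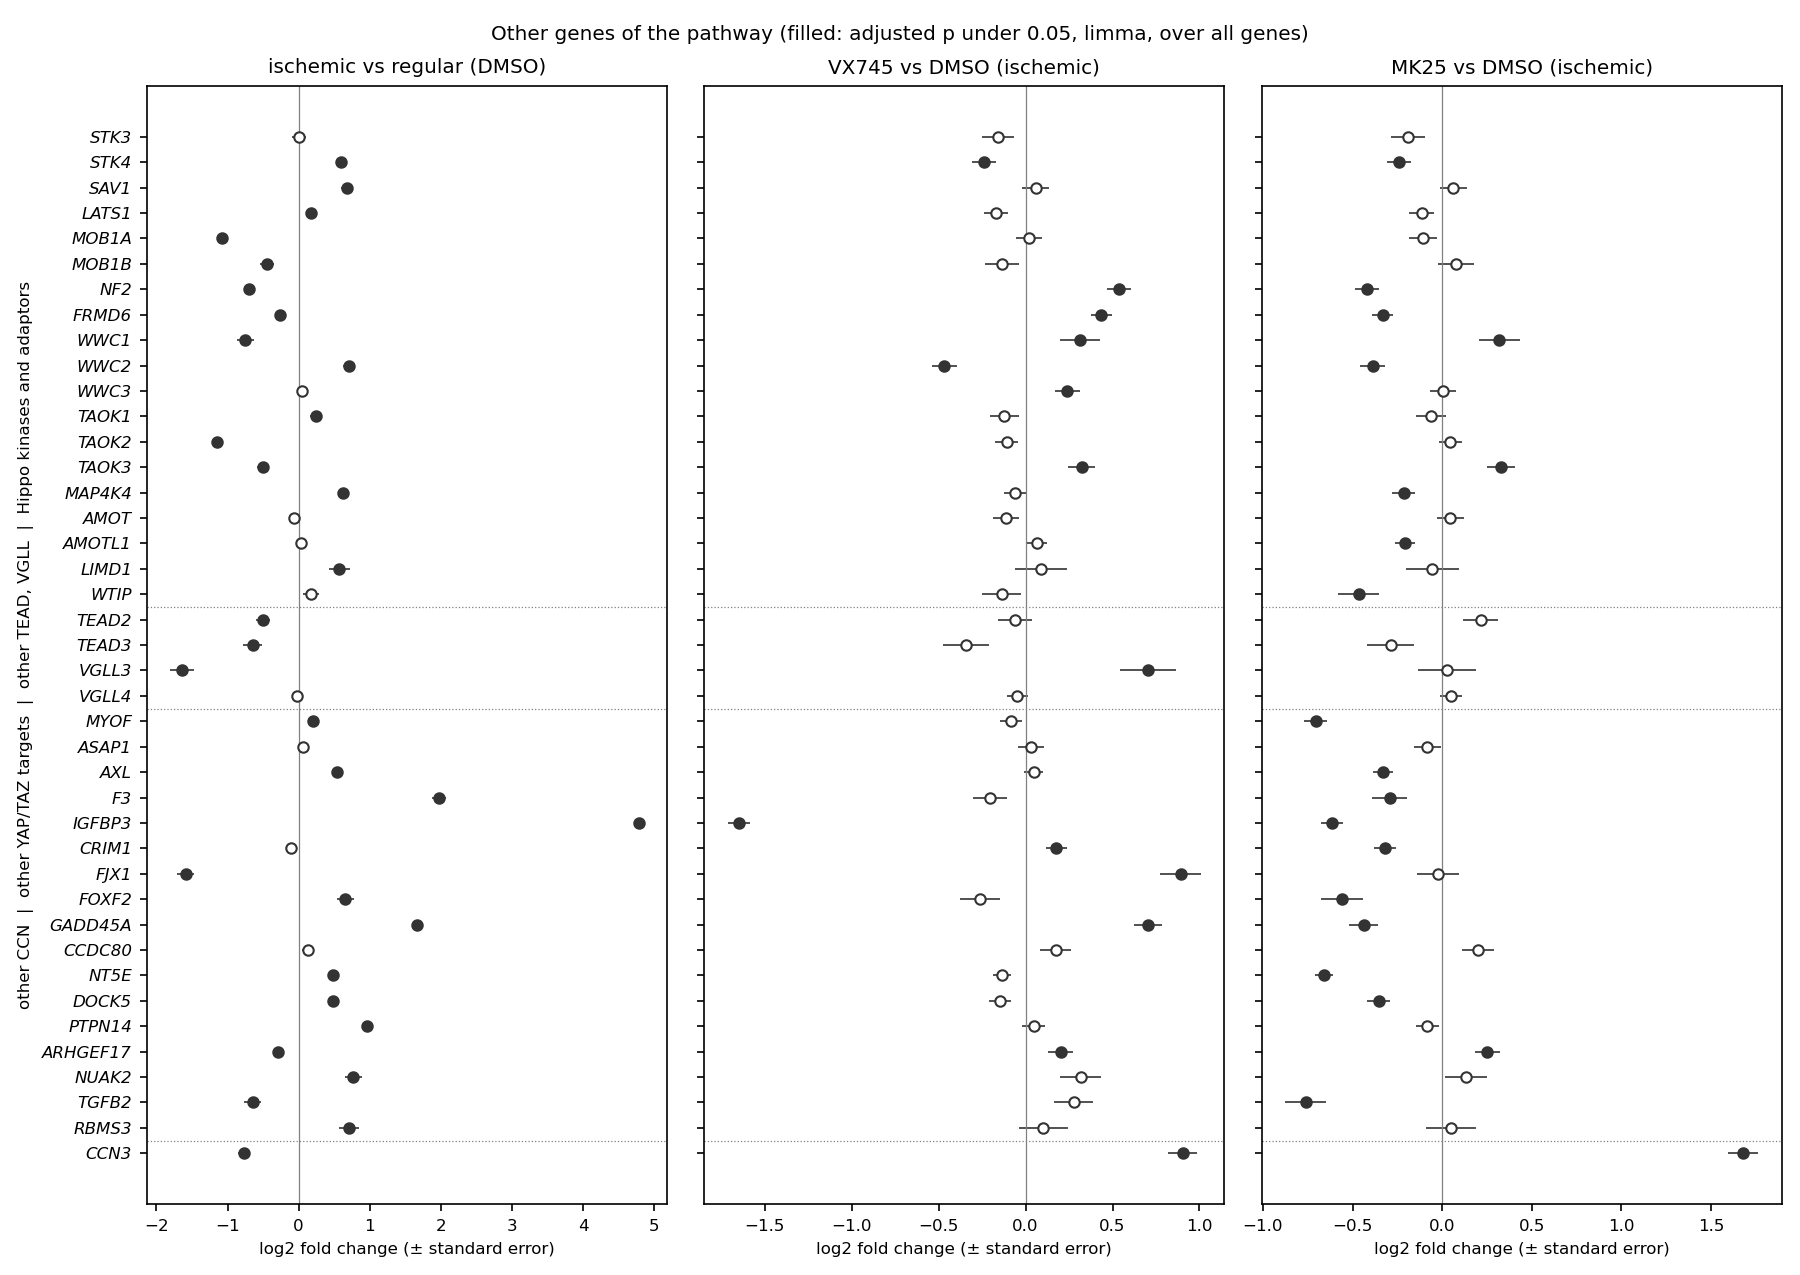
Log2 fold change (± standard error) of the listed Hippo kinases and adaptors, other TEAD and VGLL genes, other YAP/TAZ targets and *CCN3*, in ischemic against regular culture with DMSO and with each inhibitor against DMSO in ischemic culture. Filled points have an adjusted p under 0.05, horizontal axes differ between panels, and *IGFBP3* has the widest change with ischemia (4.78) and *CCN3* the widest with MK25 (1.68).

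The genes with the profile nearest to that of each of 4 members were sought over the 6 group means of the second experiment, each centred on its own mean, among 10034 other genes whose mean log2 level was 3 or more (10035 for *ANKRD1*, which is below that level itself). Likeness is the root mean square difference on the log2 scale. *GADD45A* (0.178), *JUN* (0.191) and *MAFK* (0.211) were nearest to *CCN1*, whose own profile has a root mean square of 1.10. With ischemia they differed by 1.67, 1.63 and 1.86, near the 1.90 of *CCN1*. *DUSP16* (0.101), *KCNH1* (0.115) and *PTPN22* (0.140) were nearest to *CCN2* (own profile 0.336), with differences of 0.52, 0.66 and 0.71 for VX745 in ischemic culture against 0.82 for *CCN2*. For *ANKRD1* the nearest genes (*CD70*, *PRSS53* and *RDH11*, 0.148 to 0.155) lay at a distance that is large beside its own profile of 0.300, which rests on 18 to 69 reads a library. For *YAP1* (*OGFR*, *GLE1* and *PLA2G12A*, 0.0172 to 0.0206) the profile was nearly flat (0.0555). These neighbours describe the shape over 6 groups only.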

How the data were processed

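Polyadenylated RNA of LN229 cells was sequenced in 16 libraries (2 in each of 8 groups) from total RNA with SMART-Seq and Nextera XT kits, which do not mark strand. The authors aligned reads to GRCh38 with HISAT2 in Galaxy, counted them per gene (the counting program is not given in the sources used here) and deposited log2 normalized CPM, separately for each experiment, with genes of low counts not listed. Whole reads were recovered from these values for 100% of them (tolerance 0.02 reads), which gave 20122017 to 37562668 reads a library.

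edgeR, which the authors named, was not used here. The deposited log2 values were tested with limma 3.58.1 (R 4.3.3): 1 mean per group, 12 libraries sharing 1 estimate of the spread in the second experiment, a trend of the variance on the level, two-sided tests in 10 comparisons, Benjamini-Hochberg adjustment over all genes and a threshold of 0.05 with no minimum fold. The spread of each gene was drawn toward that of genes of like level. This prior had 10.1 degrees of freedom against 2 from the libraries in the first experiment, and 11.0 against 6 in the second. Tested on simulated data for 2 comparisons, ischemia without treatment and MK25 in ischemic culture, the test found 97 of 100 genes changed by 1 and 100 of 100 changed by 2 on the log2 scale in each. It also called 7 unchanged genes in the first comparison and 9 in the second. Changes under 1, the size of most differences of the members, were not simulated. Fold changes are on the scale of the deposited values, which understates those of low genes. Levels between genes are CPM per kb of 1 reference transcript per gene (MANE Select). The labels do not say that replicate numbers pair the libraries. In the second experiment the deviations of same-numbered libraries correlated from −0.266 to 0.325 over 15 pairs of groups (median −0.0463), with no common direction. The highest value was that of the MK25 groups of both cultures. The first experiment has 1 pair of groups (0.271), too few to settle whether its libraries are paired, and no block was used.

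The members and gene lists were chosen with earlier results of these data known. All members are named, and from each other list the 4 called genes with the widest change with ischemia and the 2 with the widest change in each inhibitor comparison. Alternatives were other scalings, a filter, another offset, no variance trend, voom on recovered reads, a replicate block, fewer groups in the fit, a fold minimum and each library left out. Promoters came from RefSeq (GRCh38.p14), and exon overlaps from GENCODE 44. Every column of the deposited tables was used.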

Additional observations from a re-analysis of the deposited data

Results flagged for a closer look

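By the limma test of the interaction, the effect of VX745 differed between ischemic and regular culture for 4 of the 10 members. That of MK25 differed for 1. Of all genes, 11.8% were called in either direction with VX745 (5.78% more positive in ischemic culture). With MK25 24.4% were called in either direction (13.9% more negative), so the count for MK25 is not above the share of all genes. With VX745 the difference of the effects (ischemic minus regular, log2 scale) was 0.98 for *CCN2* (standard error 0.11, adjusted p = 6.94e-05), 0.79 for *AMOTL2* (standard error 0.12, adjusted p = 0.000696), 0.61 for *CCN1* (standard error 0.13, adjusted p = 0.00766) and 0.46 for *AJUBA* (standard error 0.12, adjusted p = 0.0217). All 4 had a positive change in ischemic and a negative one in regular culture, and the negative ones did not pass the test. Without a variance trend the interactions of *CCN1* (adjusted p = 0.0785) and *AJUBA* (adjusted p = 0.112, limma) were not called. That of *AJUBA* was 0.393 to 0.526 with 1 library left out, and its call depended on single libraries. With MK25 the difference was −0.55 for *TEAD4* (standard error 0.11, adjusted p = 0.00147), which fell in both cultures and further in the ischemic one.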

How the results depend on the processing

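Some members kept their calls under every alternative scaling, filter, offset, variance model and left-out library. With ischemia these were *TEAD1*, *CCN1* and *CCN2* in both experiments, *AJUBA* in untreated cells, and *TEAD4* and *LATS2* with DMSO. In ischemic culture they were *TEAD4*, *CCN2* and *AMOTL2* with VX745, and *TEAD4* and *CCN1* with MK25. *CCN1* with MK25 in regular culture held as well. So did *TEAD4*, *CCN1*, *CCN2*, *AMOTL2* and *AJUBA* in MK25 against VX745 in ischemic culture. In the interactions with culture they were *CCN2* and *AMOTL2* for VX745 and *TEAD4* for MK25. The other calls ended under some alternative or left-out library. With a fold minimum of 2, the members called with ischemia numbered 1 up and 0 down in each experiment, and with a minimum of 1.5 for the inhibitors they numbered 1 up and 0 down with VX745 and 1 down with MK25 in ischemic culture, 0 down with MK25 in regular culture and 3 down in MK25 against VX745 in ischemic culture. Centring libraries on their median left 3 members up in untreated ischemia. Quantile normalization left 3 up in each experiment with ischemia and 4 down with MK25 in ischemic culture, and gave 1 up in the MK25 interaction. Without a variance trend 3 members were up in untreated ischemia, 2 up with VX745 and 4 down with MK25 in ischemic culture, 1 down with MK25 in regular culture and 2 up in the VX745 interaction. With only the groups compared in the fit, 2 members were down with MK25 in regular culture. The causes were not tested. With 1 library left out, the members called numbered 3 to 4 up in untreated ischemia, 3 to 7 down with MK25 in ischemic and 3 to 5 down in regular culture, 0 to 1 down in MK25 against VX745 in regular culture and 0 to 1 up in the MK25 interaction (1 without ischemic DMSO replicate 2). Directions that turned belonged to differences that were not called. *AMOTL2* in untreated ischemia was −0.171 to 0.0181 with 1 library left out, positive without ischemic untreated replicate 1. *ANKRD1* with ischemia and DMSO was −0.340 to 0.565 with 1 library left out, negative without replicate 2 of ischemic or of regular DMSO cells. With VX745 in ischemic culture *ANKRD1* was −0.139 under quantile normalization and −0.0904 to 0.252 with 1 library left out, *WWTR1* was 0.0257 under quantile normalization, and *LATS2* was −0.00292 with median centring and −0.0486 to 0.0774 with 1 library left out, *ANKRD1* and *LATS2* being negative without ischemic VX745 replicate 1 or ischemic DMSO replicate 1. The fit with the replicate number as a block gave 6 members down with MK25 in regular culture instead of 5. The genes of the other lists were not run under the alternatives, and *ANKRD1* is limited by its depth.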
